A study of Arabidopsis thaliana with 12 samples.

Results

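Chitin-response genes were followed in flowers of Arabidopsis thaliana by poly(A) RNA sequencing. The members were the genes of the deposited table whose Gene Ontology column holds the term response to chitin and whose Description has none of the words WRKY, ethylene, zinc finger, Integrase-type or Toll-Interleukin. This rule found 87 members among 133 genes of the term and 27715 genes of the table, and the words removed the other 46. The term was proposed for description with results of these libraries in view, so the members were selected on measured values in the end, although the comparison that led to it is not recorded. Counts and medians over the members are therefore descriptions, in every comparison, while the adjusted p of a single gene comes from a fit over all 23585 genes tested.

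The study compared the wild type (WT) with a mutant of XBAT31 at 22 °C and after 3 h at 38 °C. Each of the 4 groups had 3 libraries, each made from 9 flowers of stages 1 to 12 and called a biological replicate. The groups were thus WT flowers kept at 22 °C, WT flowers exposed to 38 °C, mutant flowers kept at 22 °C and mutant flowers exposed to 38 °C. The labels name neither the background strain nor the mutant allele, and neither chitin nor another agent for any group. XBAT31 codes for a RING-type ubiquitin ligase with ankyrin repeats that is known for its part in growth responses to warmth.

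Chitin is the main polymer of fungal cell walls, and plants sense its fragments at the cell surface through receptor kinases with LysM domains. In Arabidopsis the receptor kinase CERK1 passes the signal to cytoplasmic kinases and to a cascade of mitogen-activated protein (MAP) kinases that ends in MPK3 and MPK6, and transcription factors and ubiquitin ligases are among the first genes to respond. Much of the annotation goes back to surveys of transcription factor and ubiquitin ligase genes in chitin-treated seedlings, and many of the same genes are known to respond to wounding, cold, heat or hormones.

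The working name of the set, chitin-response genes outside transcription factor families, did not hold against the table: 37 of the 87 members code for transcription factors. These are 8 MYB factors, 5 heat shock factors, 7 GRAS factors, 4 NAC factors, 6 bZIP or bHLH factors and 7 other transcription regulators, of which 3 (ZF1, ZF2 and ZF3) were kept because their Description spells zinc-finger with a hyphen. Another 30 members code for proteins of the ubiquitin ligase types U-box (12) or RING (18). The set is therefore named here by its rule. It was spread over chromosomes 1 to 5 with 15, 15, 18, 17 and 22 members.

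Levels are given in FPKM, fragments scaled to transcript length and to the depth of the library, as the authors deposited them. The median member had a mean of 3.99 FPKM over the 12 libraries; 23 members were under 1 FPKM, 39 between 1 and 10, and 25 at 10 or more. The highest means belonged to ABI5 (76.2 FPKM), the RING gene AT4G26400 (62.5 FPKM), MYBR1 (52.8 FPKM), MYB77 (43.2 FPKM) and BRH1 (40.8 FPKM). Of the 87 members, 81 had enough counts to be tested. The 6 others, AT3G16530, MYB27, AT4G01350, MYB41, AT5G17960 and AT5G56960, did not exceed 0.277 FPKM in any library. A member can also pass this filter through one group alone, so the 81 are not all members and their counts are read with that limit.

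**Figure D1:**
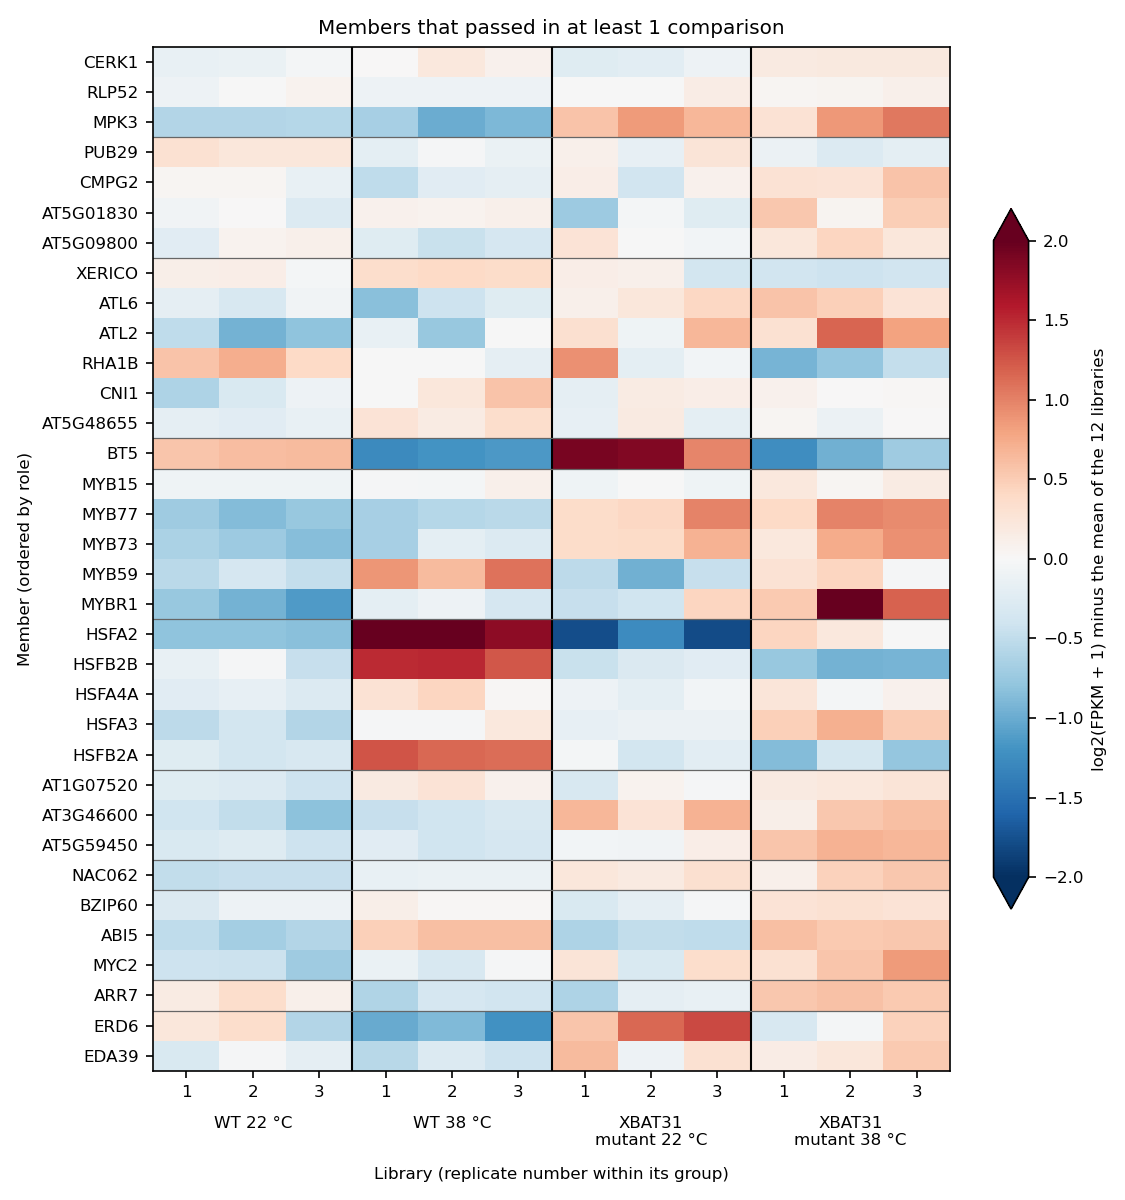
Levels of the 34 members that passed in at least 1 comparison, one row per member ordered by role and one column per library, as log2(FPKM + 1) minus the mean of the 12 libraries (red above, blue below, colours saturated at 2 and -2). MPK3, MYB77 and MYB73 are red in both groups of mutant columns, and HSFA2, HSFB2B and HSFB2A are darkest red in the WT columns at 38 °C.

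Promoter sequences are shown for 6 members on which the comparisons below turn: 4 of the 5 that were higher in the mutant at both temperatures (MYB77, MYB73, NAC062 and AT3G46600), HSFB2B, whose heat response differed most between genotypes among those called, and BT5, which fell with heat in both genotypes. Each is the 300 bases before the RefSeq gene start on TAIR10.1, written 5′ to 3′ on the gene's strand. Capitals mark matches on either strand to the W-box core TTGAC, to the G-box CACGTG or to the heat shock element core GAANNTTC.
MYB77 (chr3:18559327-18559626, minus strand): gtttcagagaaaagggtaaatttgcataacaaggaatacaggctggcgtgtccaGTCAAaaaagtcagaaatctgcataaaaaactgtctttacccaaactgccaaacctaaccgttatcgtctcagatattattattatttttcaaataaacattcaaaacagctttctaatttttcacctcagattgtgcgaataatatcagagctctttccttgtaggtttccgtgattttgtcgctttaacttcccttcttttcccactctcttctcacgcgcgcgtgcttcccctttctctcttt
MYB73 (chr4:17540190-17540489, plus strand): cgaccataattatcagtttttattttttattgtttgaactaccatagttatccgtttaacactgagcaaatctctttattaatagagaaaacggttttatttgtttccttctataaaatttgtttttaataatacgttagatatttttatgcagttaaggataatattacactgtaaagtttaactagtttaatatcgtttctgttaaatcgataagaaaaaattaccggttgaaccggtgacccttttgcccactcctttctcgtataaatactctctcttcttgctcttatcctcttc
NAC062 (chr3:18364960-18365259, minus strand): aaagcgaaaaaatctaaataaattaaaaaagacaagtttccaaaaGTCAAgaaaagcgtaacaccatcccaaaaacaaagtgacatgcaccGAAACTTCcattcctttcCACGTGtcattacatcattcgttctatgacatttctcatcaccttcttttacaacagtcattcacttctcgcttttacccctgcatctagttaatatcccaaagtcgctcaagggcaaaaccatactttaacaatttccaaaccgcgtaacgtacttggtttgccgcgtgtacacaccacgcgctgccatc
AT3G46600 (chr3:17157285-17157584, plus strand): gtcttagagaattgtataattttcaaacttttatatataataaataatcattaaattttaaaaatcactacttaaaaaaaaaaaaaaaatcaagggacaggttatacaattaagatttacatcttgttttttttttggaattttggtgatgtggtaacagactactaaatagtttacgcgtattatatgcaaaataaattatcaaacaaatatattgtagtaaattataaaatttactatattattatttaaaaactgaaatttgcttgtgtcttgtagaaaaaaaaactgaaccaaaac
HSFB2B (chr4:7042054-7042353, plus strand): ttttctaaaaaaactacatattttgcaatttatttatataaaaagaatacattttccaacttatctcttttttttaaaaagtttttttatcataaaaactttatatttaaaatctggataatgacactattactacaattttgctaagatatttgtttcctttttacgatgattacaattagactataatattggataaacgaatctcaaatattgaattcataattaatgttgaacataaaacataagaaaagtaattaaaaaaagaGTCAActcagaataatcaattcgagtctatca
BT5 (chr4:17672354-17672653, minus strand): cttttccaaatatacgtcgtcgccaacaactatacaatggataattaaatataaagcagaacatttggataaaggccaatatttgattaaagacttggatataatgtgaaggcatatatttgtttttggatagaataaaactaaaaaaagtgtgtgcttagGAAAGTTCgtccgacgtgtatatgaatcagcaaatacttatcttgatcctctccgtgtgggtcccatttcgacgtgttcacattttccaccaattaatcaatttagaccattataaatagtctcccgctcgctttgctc
NAC062 holds a W-box core, a heat shock element core and a G-box in this window, MYB77 and HSFB2B hold a W-box core, and BT5 holds a heat shock element core. MYB73 and AT3G46600 have none of the motifs searched. The windows of MPK3 and HSFB2A, which were also read but are not printed, have none of them either. That of MPK3 overlaps another annotated gene, AT3G45638. Such absence says only that these letters are not in the window.

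Over the 87 members, 65.5% of these windows held a W-box core, the element that WRKY factors bind, against 50.4% of the windows of 27443 protein-coding genes. At least 2 W-box cores were found in 26.4% of members and 17.9% of all genes. The G-box was present in 11.5% against 7.09%, and the heat shock element core in 18.4% against 11.5%. The GCC-box GCCGCC (2.30% against 2.26%) and the CGCG box CGCGTT (2.30% against 3.08%) were rare in both. Among the 17 members higher in the mutant at 38 °C, 64.7% held a W-box core and 23.5% a heat shock element core. These shares are descriptions of the sequences and were not tested.

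XBAT31 itself stood at 95.3 to 96.8 FPKM in the WT libraries at 22 °C and at 107 to 110.1 FPKM at 38 °C, and at 45.3 to 55.7 and 47.5 to 54.2 FPKM in the mutant libraries. Transcript of the gene thus remained in every mutant library, at a lower level than in any WT library (log2 fold change -0.93 at 22 °C and -1.15 at 38 °C). Library totals ran from 44983198 to 63088433 counts. Floral organ identity genes, the defining genes of the tissue, summed to 613 to 718 FPKM in every library. A list of 17 maturing pollen genes summed to 1655 to 3686 FPKM in WT and 1847 to 2229 FPKM in mutant libraries at 22 °C, and to 934 to 2004 and 556 to 2272 FPKM at 38 °C. A list of 17 photosynthesis genes of green parts summed to 7710 to 13418 and 4400 to 9172 FPKM at 22 °C, and to 8242 to 9934 and 8436 to 11068 FPKM at 38 °C. The part of organ makeup in the results below was not tested. In such whole-flower samples, fewer cells of a type and less RNA per cell cannot be told apart. In all, 3 libraries stood apart from the rest on the second principal component (WT at 38 °C replicate 2, mutant at 22 °C replicate 2 and mutant at 38 °C replicate 1). Members whose calls were lost without them are named, while members called only without them are not.

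The first question was whether the members differed between the mutant and the WT at 22 °C. Among the 81 tested members, 5 were higher in the mutant and 0 were lower, 6.17% of the members, where 0.191% of all tested genes passed (0.161% higher and 0.0297% lower). They were the MAP kinase gene MPK3, the MYB factor genes MYB77 and MYB73, the GRAS factor gene AT3G46600 and NAC062. The median log2 fold change of the 81 members was 0.05, against -0.01 over all tested genes. In depth-scaled counts, the libraries of the 2 groups did not overlap for 25.9% of the members and 11.8% of all tested genes. Lack of overlap is thus given below as a description of the values. None of the 18 RING genes, the 12 U-box genes or the 5 heat shock factor genes passed at 22 °C.

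MPK3, a MAP kinase of immune and stress signalling, was listed at 9.01, 9.04 and 9.14 FPKM in the WT libraries at 22 °C and at 21.3, 25.9 and 22.8 FPKM in the mutant libraries. All mutant libraries lay above all WT libraries, and the WT values were nearly equal. The log2 fold change was 1.33 ± 0.18 (SE), with an adjusted p of 0.00912 by edgeR's quasi-likelihood test.

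MYB77, an R2R3-MYB factor of auxin and abscisic acid responses, was at 22.8, 20.5 and 22.2 FPKM in the WT and at 49.5, 50.9 and 76.3 FPKM in the mutant. Mutant replicate 3 was the highest, and the groups did not overlap. The log2 fold change was 1.40 ± 0.18 (SE; adjusted p = 0.00898). MYB73, a close relative of MYB77, was at 19.3, 17.9 and 16.3 FPKM in the WT and at 39.5, 39.9 and 49.6 FPKM in the mutant, where every library exceeded every WT library (log2 fold change 1.24 ± 0.18 SE, adjusted p = 0.0169).

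AT3G46600, a GRAS-family transcription factor gene, was at 6.53, 6.07 and 4.65 FPKM in the WT and at 14.8, 11.1 and 15.1 FPKM in the mutant. The groups again did not overlap, with a log2 fold change of 1.22 ± 0.17 (SE; adjusted p = 0.0132). NAC062, which codes for a membrane-tethered NAC factor that is released under cold or endoplasmic reticulum stress, was at 18.9, 19.3 and 19.2 FPKM in the WT and at 31.4, 30.5 and 33.9 FPKM in the mutant. It showed the smallest difference of the 5, a log2 fold change of 0.71 ± 0.10 (SE; adjusted p = 0.0169), with libraries of each group close together.

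Each of these calls was lost without certain single libraries at 22 °C. Left without WT replicate 1 or 2, MPK3 and MYB77 missed the threshold (adjusted p up to 0.0704 and 0.0685). MYB73 and NAC062 missed it without any 1 of the WT replicates or without mutant replicate 1 or 3 (up to 0.111 and 0.117), and AT3G46600 without WT replicate 2 or 3 or mutant replicate 1 or 3 (up to 0.0751). The direction did not change in any of these fits. Without the 3 libraries that stood apart 8 members passed, 7 higher and 1 lower, with these 5 among the higher. A fit of only these groups ended the calls of MYB77 and AT3G46600.

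Other members at 22 °C had large but variable differences that did not pass. JAZ7, a repressor of jasmonate signalling, was at 1.12, 1.92 and 0.977 FPKM in the WT and 4.82, 2.14 and 7.15 FPKM in the mutant (log2 fold change 1.78 ± 0.52 SE, adjusted p = 0.506). BT5, a BTB and TAZ domain scaffold protein, was at 6.53, 6.83 and 6.98 FPKM in the WT and 18.2, 17.6 and 9.09 FPKM in the mutant (log2 fold change 1.11 ± 0.26 SE, adjusted p = 0.274). Neither gene's groups overlapped. NAC036 was at 0.0711 to 0.389 FPKM in the WT and at 1.54 to 1.87 FPKM in the mutant, and RRTF1, a redox-responsive factor, at 0.0623 to 0.227 and 0.703 to 1.67 FPKM. Neither passed.

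At 38 °C more members passed in the same genotype comparison, as did more of all tested genes (2269 against 45 at 22 °C). An adjusted p depends on how many genes have small p-values, so the counts at 22 and 38 °C are not compared as sizes of effect. In the mutant, 17 members were higher and 4 lower, 25.9% of the 81, where 9.62% of all tested genes passed (4.36% higher and 5.26% lower). The median log2 fold change of the members was 0.25, against -0.002 over all tested genes. The libraries of the 2 groups did not overlap for 39.5% of the members and 30.1% of all tested genes. The higher members included MPK3 and RLP52 of the receptors and kinases, CMPG2 and AT5G09800 of the U-box proteins, ATL6 and ATL2 of the RING proteins, MYB77, MYB73 and MYBR1 of the MYB factors, and AT3G46600 and AT5G59450 of the GRAS factors. HSFA3, NAC062, MYC2, the response regulator gene ARR7, ERD6 and EDA39 completed the 17. Of these 17, RLP52 was tested largely through the mutant libraries at 38 °C, the group called higher, so its call is limited as given below. The 4 lower members were HSFB2B, HSFA2 and HSFB2A of the heat shock factors and the RING gene XERICO.

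All 5 members called at 22 °C were also called at 38 °C, in the same direction, as were 42 of the 45 genes called at 22 °C in the whole table, 40 of them with the same sign. These comparisons share no library, but both come from the same fit, in which all groups share an estimate of the spread. Their calls are therefore not independent. Over all 81 members, 30 (37.0%) had positive log2 fold changes at both temperatures, against 24.6% of all tested genes. In depth-scaled counts, all 6 mutant libraries lay above all 6 WT libraries for 8 members (9.88%), namely MPK3, MYB77, MYB73, NAC062, AT3G46600, AT5G59450, ATL6 and NAC036. Over all tested genes this held for 165 (0.700%), and the opposite order held for 55 (0.233%) and for 0 members.

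**Figure D2:**
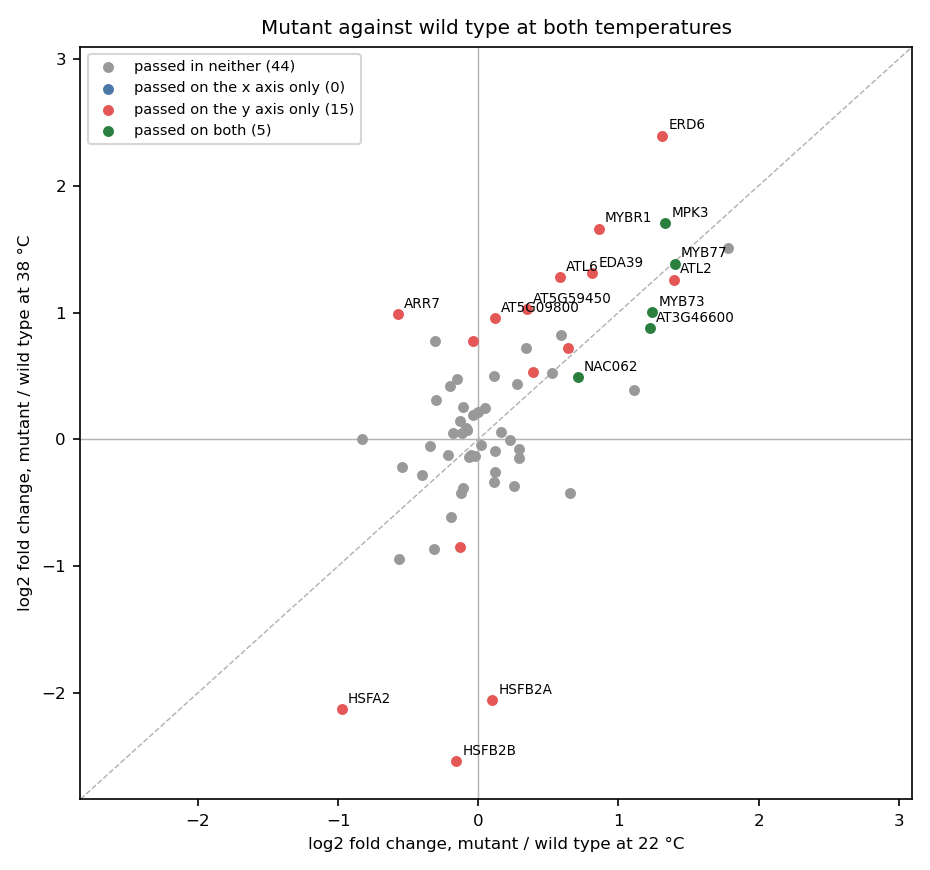
Log2 fold change of the mutant over the WT at 22 °C (x axis) and at 38 °C (y axis) for the 64 tested members with a mean of at least 1 FPKM, one point per member, coloured by where the gene passed at adjusted p below 0.05; the dashed line marks equal values. The 5 members that passed on both axes lie in the upper right, 15 others passed on the y axis, and HSFA2, HSFB2A and HSFB2B lie lowest.

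MPK3 at 38 °C was at 8.42, 6.51 and 7.02 FPKM in the WT and at 17.3, 26.4 and 30.0 FPKM in the mutant. Mutant replicate 1 was the lowest of its group and still above every WT library, with a log2 fold change of 1.71 ± 0.18 (SE; adjusted p = 0.00034). MYB77 was at 23.7, 25.3 and 25.8 FPKM in the WT and at 50.7, 76.3 and 73.9 FPKM in the mutant, a log2 fold change of 1.39 ± 0.18 (SE; adjusted p = 0.00124) that nearly repeated the value at 22 °C. MYB73 was at 18.8, 26.4 and 24.98 FPKM in the WT and at 35.3, 51.3 and 57.8 FPKM in the mutant, without overlap (1.00 ± 0.18 SE, adjusted p = 0.00558).

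MYBR1, also called MYB44, a relative of MYB77 and MYB73 in abscisic acid signalling, varied widely between the mutant libraries. It was at 36.1, 38.6 and 32.5 FPKM in the WT and at 59.7, 192 and 94.7 FPKM in the mutant at 38 °C. Mutant replicate 2 held the highest value and replicate 1, still above the WT, the lowest (log2 fold change 1.66 ± 0.37 SE, adjusted p = 0.0169). This call missed the threshold without WT replicate 1 or 3 (adjusted p up to 0.0718). At 22 °C, MYBR1 was at 24.1, 21.0 and 18.3 FPKM in the WT and at 29.9, 31.0 and 56.1 FPKM in the mutant, which did not pass (log2 fold change 0.86 ± 0.37 SE, adjusted p = 0.681).

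AT3G46600 at 38 °C was at 6.27, 6.57 and 6.94 FPKM in the WT and at 9.82, 13.5 and 14.1 FPKM in the mutant (log2 fold change 0.88 ± 0.17 SE, adjusted p = 0.00838). NAC062 was at 24.2, 24.5 and 24.3 FPKM in the WT and at 28.9, 37.5 and 39.3 FPKM in the mutant (0.49 ± 0.10 SE, adjusted p = 0.0127). Neither gene's groups overlapped, and both lowest mutant values came from replicate 1, one of the libraries that stood apart. NAC062 missed the threshold without WT replicate 1 or mutant replicate 3 (adjusted p up to 0.0615).

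Among the ubiquitin ligase genes, ATL6, a membrane RING protein of carbon and nitrogen responses and defence, was at 0.932, 1.58 and 1.92 FPKM in the WT and at 4.14, 3.77 and 3.16 FPKM in the mutant at 38 °C. The groups did not overlap (log2 fold change 1.28 ± 0.26 SE, adjusted p = 0.0104). ATL2, another RING gene of this family, was at 3.45, 1.899 and 3.89 FPKM in the WT and at 5.06, 10.04 and 7.61 FPKM in the mutant (1.26 ± 0.34 SE, adjusted p = 0.0414). This call is weak: it was lost in 8 of the 12 fits with 1 library left out (adjusted p up to 0.140), namely those without WT at 22 °C replicate 2 or 3, mutant at 22 °C replicate 1, any of the WT replicates at 38 °C, or mutant at 38 °C replicate 2 or 3.

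The U-box gene CMPG2 was at 2.90, 3.76 and 3.92 FPKM in the WT and at 5.76, 5.66 and 7.23 FPKM in the mutant at 38 °C (log2 fold change of 0.78 ± 0.20 SE, adjusted p = 0.0288). Another U-box gene, AT5G09800, was at 1.40, 1.08 and 1.25 FPKM in the WT and at 2.31, 2.83 and 2.32 FPKM in the mutant (0.96 ± 0.25 SE, adjusted p = 0.0318). Both sets of libraries were separate, but each call was lost without any 1 of the 6 libraries at 38 °C (adjusted p up to 0.125 for CMPG2 and 0.107 for AT5G09800). CMPG1, the paralog of CMPG2, was at 0.428, 0.165 and 0.534 FPKM in the WT and at 0.634, 1.94 and 1.26 FPKM in the mutant and did not pass (1.70 ± 0.61 SE, adjusted p = 0.112). PUB22, PUB23 and PUB24, which are known to dampen immune signalling, did not exceed 0.455 FPKM in any library and passed in none of the comparisons.

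PUB12, whose product marks the flagellin receptor for turnover together with PUB13, lies next to XBAT31 with no annotated gene between them. The genes are 7851 bases apart on opposite strands of chromosome 2. PUB12 was at 1.81, 2.83 and 2.25 FPKM in WT and 2.22, 2.66 and 2.13 FPKM in mutant libraries at 22 °C, which overlapped (log2 fold change -0.004 ± 0.18 SE, adjusted p = 0.999). At 38 °C it was at 2.33, 3.04 and 2.52 FPKM in the WT and at 3.35, 2.62 and 3.47 FPKM in the mutant (0.22 ± 0.18 SE, adjusted p = 0.565).

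The RING gene XERICO, which promotes abscisic acid accumulation, ran the other way at 38 °C. It was at 25.5, 26.2 and 25.7 FPKM in the WT and at 14.9, 14.5 and 14.8 FPKM in the mutant, with libraries tightly grouped and far apart. The log2 fold change was -0.85 ± 0.12 (SE; adjusted p = 0.00147), and the call held without any 1 library.

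ERD6, a sugar transporter gene first described for its response to drying, was at 0.364, 0.492 and 0.183 FPKM in the WT and at 1.21, 1.67 and 2.79 FPKM in the mutant at 38 °C. The lowest mutant library was above the highest WT library, with the largest fitted rise among members with counts in all 4 groups (log2 fold change 2.39 ± 0.49 SE, adjusted p = 0.0112). Without WT replicate 1 the adjusted p was 0.0516. EDA39, a calmodulin-binding protein gene, was at 0.535, 0.868 and 0.695 FPKM in the WT and at 1.51, 1.64 and 2.24 FPKM in the mutant (1.31 ± 0.33 SE, adjusted p = 0.0273), a call lost without WT replicate 1 or 3 or mutant replicate 2 or 3 (up to 0.120). RLP52, a receptor-like protein gene, had 0 counts in all 3 WT libraries at 38 °C and 12 to 19 counts in the mutant libraries, and passed (adjusted p = 0.0352). Only in this mutant group did all 3 libraries reach the minimum count of the filter. RLP52 was thus tested largely through the group called higher, and its call is read with that limit. It held 0 to 18 and 8 to 24 counts in WT and mutant libraries at 22 °C, so no fold is given at such counts, and the call was lost in 8 of 12 fits with 1 library left out (adjusted p up to 0.109): those without WT at 22 °C replicate 2, mutant at 22 °C replicate 1 or any of the 6 libraries at 38 °C.

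MYC2, the master factor of jasmonate responses, was at 29.9, 26.1 and 32.2 FPKM in the WT and at 40.9, 48.6 and 60.2 FPKM in the mutant at 38 °C (log2 fold change of 0.72 ± 0.18 SE, adjusted p = 0.0295). The libraries did not overlap, but the call was lost without any 1 of the WT replicates or mutant replicate 2 or 3 (adjusted p up to 0.124). HSFA3, a heat shock factor that acts downstream of DREB2A, was at 6.67, 6.64 and 8.04 FPKM in the WT and at 9.90, 11.7 and 10.12 FPKM in the mutant (0.53 ± 0.13 SE, adjusted p = 0.0241). It was lost without WT replicate 1 or 2 or mutant replicate 2 or 3 (up to 0.103). Across the 21 calls at 38 °C, scaling on reference genes ended those of ATL2, CMPG2, MYC2 and HSFA3, and a fit of only the groups compared those of ATL2, AT5G09800 and HSFA3. Leaving out the 3 libraries that stood apart ended those of RLP52, ATL6, AT5G09800 and HSFA3, and limma on FPKM that of RLP52. With reference-gene scaling the share of called genes that were higher went from 81.0% to 72.2% in the members and from 45.3% to 19.1% over all tested genes.

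Genes of the same term that the words of the rule removed were higher in the mutant as well: 12 of the 42 tested at 22 °C and 18 of 42 at 38 °C, with 0 lower at either temperature, where 0.161% and 4.36% of all tested genes were higher. They included WRKY33 (log2 fold change 3.45 at 22 °C and 2.17 at 38 °C) and ERF6 (4.53 and 3.19), factors of pathogen and ethylene responses. No test of a difference between these genes and the members was made.

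Other values also moved with genotype. The summed level of 4 touch genes (TCH1 to TCH4), which respond to handling and other mechanical stimuli, was 83.7 to 94.4 FPKM in WT and 143 to 209 FPKM in mutant libraries at 22 °C. At 38 °C it was 58.7 to 69.1 FPKM in WT and 169 to 240.5 FPKM in mutant libraries, so the mutant libraries were above the WT libraries at both temperatures. TCH3 and TCH4 were called higher at 22 °C, and TCH2, TCH3 and TCH4 at 38 °C. Whether handling, growth conditions or a shared stimulus has a part in the members' differences was not tested.

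Of a list of 20 genes of chitin perception and signalling, which overlaps the members in CERK1, MPK3, MAPKKK5 and PUB12, 1 (MPK3) was higher in the mutant at 22 °C and 4 at 38 °C, with 0 lower. These are 5% and 20% of the list. Of all tested genes, 0.161% were higher and 0.0297% lower at 22 °C, and 4.36% higher and 5.26% lower at 38 °C. The 4 were MPK3, the chitin co-receptor gene LYK5 (log2 fold change 1.01 ± 0.22 SE, adjusted p = 0.0164) and the MAP kinase kinase genes MKK4 (0.93 ± 0.12 SE, adjusted p = 0.000841) and MKK5 (0.36 ± 0.10 SE, adjusted p = 0.0412), whose products act directly upstream of MPK3. The median log2 fold change of the list was 0.06 at 22 °C and 0.13 at 38 °C, against -0.01 and -0.002 over all tested genes.

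CERK1 was not among the genes called for genotype. It was at 12.1, 12.3 and 13.1 FPKM in WT and 11.2, 11.5 and 12.5 FPKM in mutant libraries at 22 °C, and at 13.5, 15.9 and 14.4 FPKM in WT and 15.5, 15.6 and 15.6 FPKM in mutant libraries at 38 °C. The groups overlapped at both temperatures (mutant over WT, -0.12 ± 0.08 and 0.05 ± 0.08 SE on the log2 scale, adjusted p = 0.797 and 0.799). MAPKKK5, which links CERK1 to the MAP kinase cascade, had group means between 19.4 and 20.7 FPKM. SERK4, a co-receptor kinase gene, was at 11.7 to 12.8 FPKM in WT and 14.4 to 15.4 FPKM in mutant libraries at 38 °C, without overlap but short of the threshold (0.25 ± 0.09 SE, adjusted p = 0.126).

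**Figure D3:**
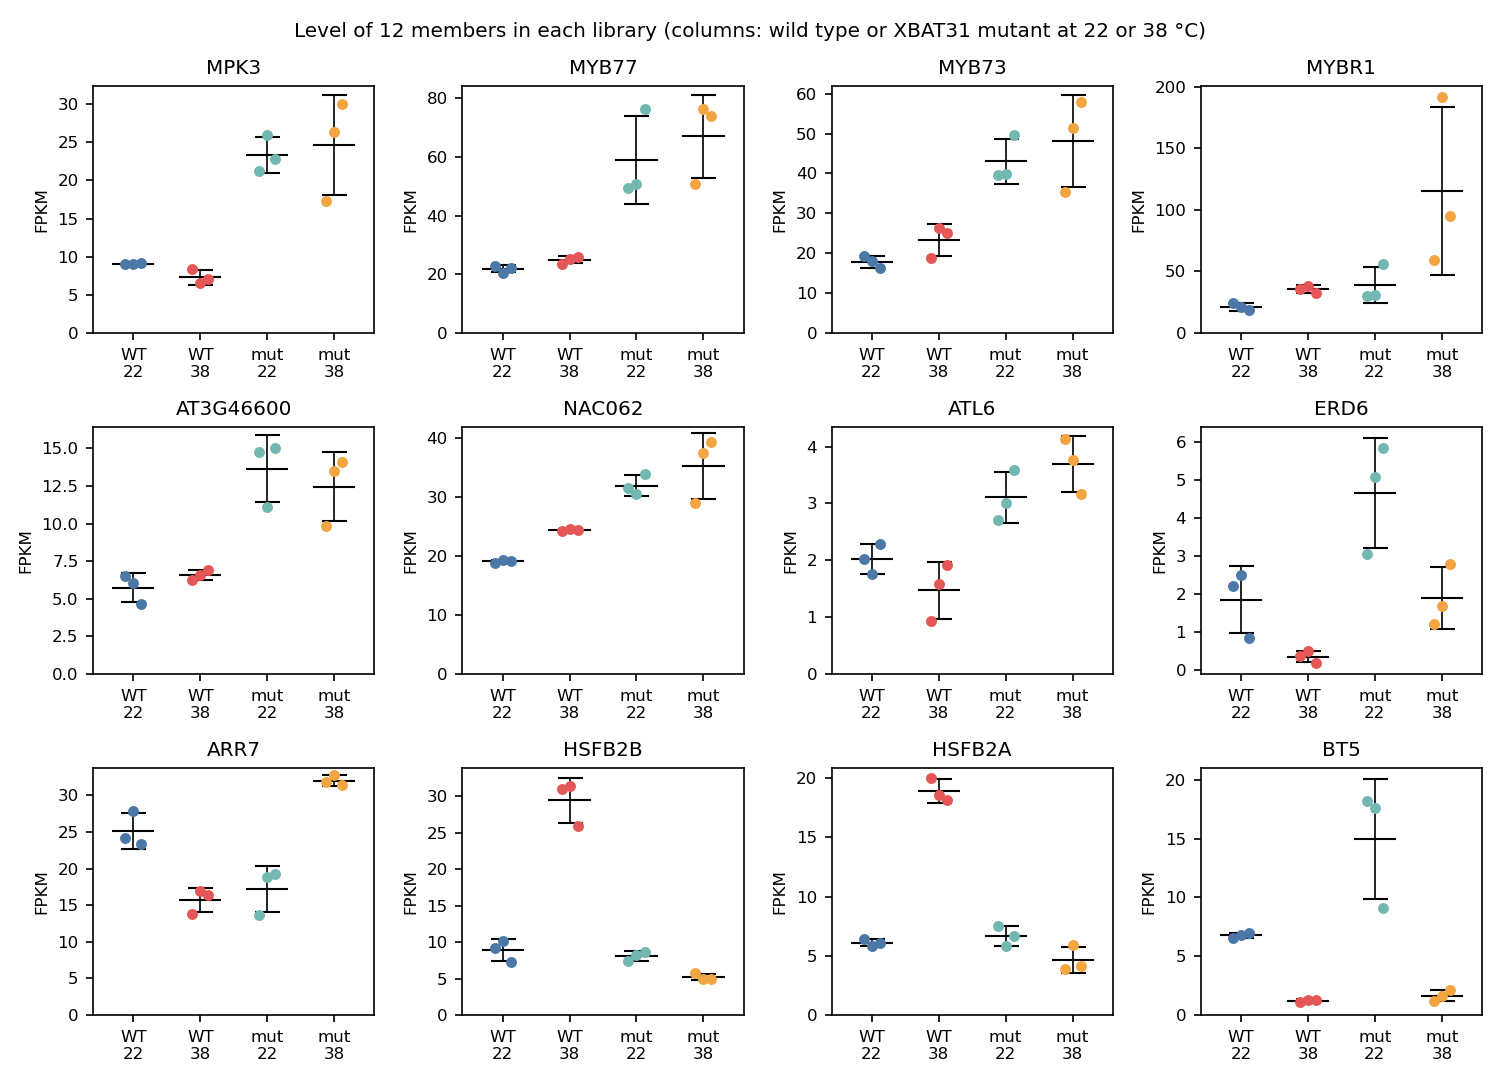
FPKM of 12 members in each library (points), with the mean (long bar) and SD (whiskers) of the 3 libraries of each group; columns are WT and mutant (mut) at 22 and 38 °C, and each panel has its own axis. MPK3, MYB77, MYB73, AT3G46600, NAC062 and ATL6 are higher in both mutant groups, whereas HSFB2B and HSFB2A are high in WT at 38 °C alone among the 4 groups and BT5 is low in both groups at 38 °C.

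The second question was how the members responded to 3 h at 38 °C within each genotype. In the WT, 11 of the 81 were higher and 5 lower, 19.8% of the members, where 30.7% of all tested genes passed (14.3% higher and 16.4% lower). Their median log2 fold change was 0.10 against -0.05 over all tested genes. The libraries of the 2 temperatures did not overlap for 35.8% of the members and 48% of all tested genes. All 5 heat shock factor genes were called higher, together with MYB59, MYB15, ABI5, the GRAS gene AT1G07520 and the RING genes CNI1 and AT5G48655. MYB15 had 0 counts in all 3 WT libraries at 22 °C and 4 to 12 at 38 °C. No library at 22 °C reached the minimum count of the filter, so MYB15 was tested only through libraries at 38 °C. The call of MYB15 was lost in 9 of 12 fits with 1 library left out, and is read with that limit. BT5, ERD6, ARR7, the U-box gene PUB29 and RLP52 fell. RLP52 had 0 to 18 counts at 22 °C and 0 in all 3 libraries at 38 °C, so the groups overlapped at 0. Its call (adjusted p = 0.0227) was lost without WT replicate 3 at 22 °C or any WT replicate at 38 °C (adjusted p up to 0.0696), in both limma fits and with the counts divided by 4.

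In the mutant, 10 members were higher and 7 lower after heat, 21.0% of the 81, where 24.9% of all tested genes passed (11.3% higher and 13.6% lower). The median was 0.19, against -0.003 over all tested genes. The libraries of the 2 temperatures did not overlap for 35.8% of the members and 41.3% of all tested genes. HSFA2, HSFA3, MYB59, MYBR1, ABI5, BZIP60, ARR7, AT5G59450, AT5G01830 and CERK1 rose. BT5, ERD6, RHA1B, XERICO, PUB29, HSFB2B and HSFB2A fell. In both genotypes 10 members were called, 7 of them with the same sign; HSFB2B, HSFB2A and ARR7 had opposite signs. Over all genes, 3668 of the 3737 called in both had the same sign.

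The balance of rises and falls depended on the scaling. Of 10 reference genes, 4 were called lower and 0 higher with heat in each genotype in the TMM-scaled fit. Their median log2 fold change was -0.19 in the WT and -0.20 in the mutant, so they were not all stable there. Scaled on these 10 genes in place of TMM, the median of all genes shifted by 0.30 for heat in the WT and by 0.19 for heat in the mutant. The share of called members that were higher then went from 68.8% to 86.2% in the WT (25 higher and 4 lower) and from 58.8% to 84.2% in the mutant (16 higher and 3 lower). Over all tested genes the same share went from 46.6% to 85.7% in the WT and from 45.4% to 80.2% in the mutant, so under this scaling the members were near the table as a whole. Under that scaling the falls of PUB29 in both genotypes, and of ERD6, HSFB2A and XERICO in the mutant, missed the threshold. Leaving out the 3 libraries that stood apart ended the calls of CNI1, HSFA4A, MYB15 and RLP52 in the WT and of BZIP60, CERK1, ERD6, HSFB2A and XERICO in the mutant. A fit of only the groups compared ended that of CNI1 in the WT, where MYB15 and RLP52 did not pass the filter on low counts and so were not tested, and those of AT5G01830, HSFB2A, MYB59, MYBR1, PUB29, RHA1B and XERICO in the mutant. The log2 fold changes below come from the TMM-scaled fit of all libraries.

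HSFA2, the heat-induced factor that sustains acquired thermotolerance, was at 6.34, 6.35 and 6.12 FPKM in the WT at 22 °C and at 63.5, 71.0 and 43.1 FPKM at 38 °C (log2 fold change of 3.14 ± 0.22 SE, adjusted p = 4.17e-06). In the mutant it was at 2.72, 4.36 and 2.69 FPKM at 22 °C and at 16.2, 13.9 and 11.7 FPKM at 38 °C (1.99 ± 0.22 SE, adjusted p = 0.000184). It rose in both genotypes without overlap, and at 38 °C every mutant library was below every WT library (log2 fold change -2.13 ± 0.21 SE, adjusted p = 0.000268). At 22 °C every mutant library was likewise below every WT library in FPKM, although this genotype difference did not pass. The difference of the heat responses itself did not pass (-1.15 ± 0.30 SE, adjusted p = 0.0814).

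HSFB2B, a class B heat shock factor of the repressor type, was at 9.24, 10.2 and 7.27 FPKM in the WT at 22 °C and at 31.0, 31.3 and 25.9 FPKM at 38 °C. In the mutant it was at 7.36, 8.29 and 8.70 FPKM at 22 °C and at 5.75, 4.90 and 4.98 FPKM at 38 °C. The WT libraries at 38 °C were the highest of the 12 and the mutant libraries at 38 °C the lowest, without overlap. The log2 fold change with heat was 1.63 ± 0.12 in the WT (SE; adjusted p = 7.6e-06) and -0.75 ± 0.12 in the mutant (adjusted p = 0.00177).

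HSFB2A, its close relative, was at 6.45, 5.79 and 6.09 FPKM in the WT at 22 °C and at 20.02, 18.5 and 18.2 FPKM at 38 °C, and in the mutant at 7.53, 5.86 and 6.63 FPKM and at 3.85, 5.93 and 4.14 FPKM. It rose in the WT (log2 fold change 1.53 ± 0.17 SE, adjusted p = 7.71e-05) and fell in the mutant (-0.63 ± 0.17 SE, adjusted p = 0.0201). One mutant library at 38 °C, replicate 2, slightly exceeded the lowest mutant library at 22 °C in FPKM. The fall was lost without mutant replicate 1 of either temperature or mutant replicate 3 at 38 °C (adjusted p up to 0.0779). At 38 °C the mutant was lower than the WT for HSFB2B (-2.54 ± 0.13 SE, adjusted p = 5.47e-06) and HSFB2A (-2.06 ± 0.17 SE, adjusted p = 0.000116).

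Of the other heat shock factor genes, HSFA3 was at 4.46, 5.08 and 4.21 FPKM in the WT at 22 °C, below the values at 38 °C given above (log2 fold change 0.54 ± 0.13 SE, adjusted p = 0.00897); the mutant at 22 °C had 6.002, 6.197 and 6.23 FPKM (0.68 ± 0.13 SE, adjusted p = 0.00358). HSFA4A, a factor of oxidative stress responses, was at 2.17, 2.32 and 2.07 FPKM in the WT at 22 °C and at 3.56, 4.04 and 2.80 FPKM at 38 °C. Its rise (0.57 ± 0.17 SE, adjusted p = 0.0271) was lost without any 1 of the WT replicates at 22 °C or without WT replicate 1 or 2 at 38 °C (up to 0.105).

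ABI5, a bZIP factor of abscisic acid signalling, had the highest mean level of the members. It was at 49.5, 44.0 and 46.8 FPKM in the WT at 22 °C and at 98.9, 108 and 107 FPKM at 38 °C, and in the mutant at 45.9, 50.1 and 49.2 FPKM and at 108, 102 and 103 FPKM. The log2 fold change was 1.07 ± 0.07 (SE; adjusted p = 2.93e-06) in the WT and 1.01 ± 0.07 (adjusted p = 1.31e-05) in the mutant. The difference of these responses was -0.06 ± 0.10 (SE; adjusted p = 0.811). BZIP60, the factor of the unfolded protein response, was at 23.9, 26.2 and 29.3 FPKM in the mutant at 22 °C and at 36.2, 36.9 and 36.4 FPKM at 38 °C (0.36 ± 0.09 SE, adjusted p = 0.0152), a rise that missed the threshold without mutant replicate 1 at 22 °C (up to 0.0606).

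MYB59, an R2R3-MYB factor gene, was at 0.507, 0.728 and 0.568 FPKM in the WT at 22 °C and at 3.04, 2.39 and 3.63 FPKM at 38 °C (log2 fold change of 2.21 ± 0.47 SE, adjusted p = 0.00456). In the mutant it was at 0.524, 0.118 and 0.583 FPKM and at 1.67, 1.93 and 1.16 FPKM (1.83 ± 0.47 SE, adjusted p = 0.0168). Libraries at 38 °C exceeded those at 22 °C in both genotypes. MYB15, a factor of defence lignin synthesis, had 0 counts in the 3 WT libraries at 22 °C and 4 to 12 counts at 38 °C, so its call (adjusted p = 0.0471) carries no fold. It was lost in 9 of 12 fits with 1 library left out (adjusted p up to 0.122): without any of the WT libraries or of the mutant libraries at 38 °C. The call was also lost without a filter on low counts, in both limma fits and with the counts divided by 4. With the filter, MYB15 was tested only through libraries at 38 °C.

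MYBR1 rose with heat in the mutant (log2 fold change 1.47 ± 0.37 SE, adjusted p = 0.0148), from the values at 22 °C to those at 38 °C given above. This call missed the threshold without mutant replicate 1 at 22 °C (adjusted p up to 0.0587). In the WT the values at 38 °C were above those at 22 °C in all libraries, but did not pass (0.67 ± 0.37 SE, adjusted p = 0.194).

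BT5 fell with heat in both genotypes. It was at 6.53, 6.83 and 6.98 FPKM in the WT at 22 °C and at 1.11, 1.25 and 1.31 FPKM at 38 °C, and in the mutant at 18.2, 17.6 and 9.09 FPKM and at 1.16, 1.63 and 2.14 FPKM. The libraries at 38 °C were below all libraries at 22 °C, with log2 fold changes of -2.56 ± 0.28 (SE; adjusted p = 6.66e-05) in the WT and -3.29 ± 0.28 (adjusted p = 4.79e-05) in the mutant. ERD6 was at 2.20, 2.496 and 0.837 FPKM in the WT at 22 °C and at 3.04, 5.08 and 5.83 FPKM in the mutant at 22 °C, above the values at 38 °C given before. It fell in the WT (-2.49 ± 0.49 SE, adjusted p = 0.00301) and in the mutant (-1.40 ± 0.46 SE, adjusted p = 0.0445). The fall in the mutant was lost in 7 of 12 fits with 1 library left out (adjusted p up to 0.134), those without WT at 22 °C replicate 1 or 2, WT at 38 °C replicate 1, mutant at 22 °C replicate 2 or 3, or mutant at 38 °C replicate 1 or 2.

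Heat also lowered single ubiquitin ligase genes. PUB29 was at 16.4, 15.5 and 15.5 FPKM in the WT at 22 °C and at 11.3, 12.9 and 11.9 FPKM at 38 °C (log2 fold change of -0.49 ± 0.11 SE, adjusted p = 0.00753). The mutant libraries held 14.2, 11.5 and 15.9 FPKM at 22 °C and 12.0, 10.7 and 11.3 FPKM at 38 °C (-0.40 ± 0.11 SE, adjusted p = 0.0256). The WT groups were separate, whereas mutant replicate 2 at 22 °C lay below mutant replicate 1 at 38 °C in FPKM. The call in the mutant was lost without mutant replicate 1 or 3 at 22 °C or replicate 2 or 3 at 38 °C (adjusted p up to 0.0890).

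RHA1B, a RING-H2 gene, was at 10.9, 4.49 and 5.06 FPKM in the mutant at 22 °C and at 2.29, 2.68 and 3.49 FPKM at 38 °C (log2 fold change of -1.38 ± 0.32 SE, adjusted p = 0.00966). Replicate 1 at 22 °C was far above the others, and the groups did not overlap. XERICO fell with heat in the mutant, from 21.6, 21.1 and 15.0 FPKM to the values given above (-0.49 ± 0.12 SE, adjusted p = 0.0111), and was at 21.4, 21.6 and 19.0 FPKM in the WT at 22 °C, below the WT values at 38 °C but short of the threshold (0.23 ± 0.12 SE, adjusted p = 0.164).

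Other ubiquitin ligase genes rose. CNI1 (ATL31), the closest relative of ATL6, was at 0.588, 0.965 and 1.26 FPKM in the WT at 22 °C and at 1.41, 1.85 and 2.61 FPKM at 38 °C (log2 fold change of 0.96 ± 0.33 SE, adjusted p = 0.0474). This call rested on its margin: it was lost in 9 of 12 fits with 1 library left out (adjusted p up to 0.176) and kept only without WT replicate 3 at 22 °C, WT replicate 1 at 38 °C or mutant replicate 2 at 22 °C. AT5G48655, a RING gene, was at 21.2, 20.4 and 21.6 FPKM and at 29.5, 27.3 and 31.0 FPKM in the WT (0.38 ± 0.10 SE, adjusted p = 0.0129; 0.0512 without WT replicate 2 at 22 °C). AT5G01830, a U-box gene with ARM repeats, was at 1.91, 3.72 and 3.11 FPKM and at 6.01, 4.03 and 5.79 FPKM in the mutant (0.75 ± 0.22 SE, adjusted p = 0.0277), a rise lost without mutant replicate 1 at 22 °C or replicate 1 or 3 at 38 °C (up to 0.0872).

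CERK1 itself rose slightly with heat in the mutant, from 11.2 to 12.5 FPKM at 22 °C to 15.5 to 15.6 FPKM at 38 °C (log2 fold change of 0.30 ± 0.08 SE, adjusted p = 0.022). The call was lost without mutant replicate 1 at 22 °C or mutant replicate 2 or 3 at 38 °C (adjusted p up to 0.0733). In the WT the change did not pass (0.13 ± 0.08 SE, adjusted p = 0.262), and the difference of the responses was 0.17 ± 0.12 (SE; adjusted p = 0.511).

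Of the 20 genes of chitin perception and signalling, 0 rose and 4 fell with heat in the WT, and 3 rose and 3 fell in the mutant. These are 20% and 30% of the list, where 30.7% and 24.9% of all tested genes passed. LYM2, a LysM protein that binds chitin, fell in both genotypes (log2 fold change -0.41 ± 0.06 and -0.50 ± 0.06 SE), as did LIK1, a receptor kinase that interacts with CERK1 (-0.56 ± 0.08 and -0.69 ± 0.08 SE), and MPK6 (-0.33 ± 0.09 and -0.59 ± 0.09 SE). Scaling on reference genes shifted the median of all genes by 0.30 in the WT and 0.19 in the mutant. Whether these falls hold under that scaling is not given here. The median of the list was -0.20 in the WT and 0.10 in the mutant, against -0.05 and -0.003 over all tested genes.

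**Figure D4:**
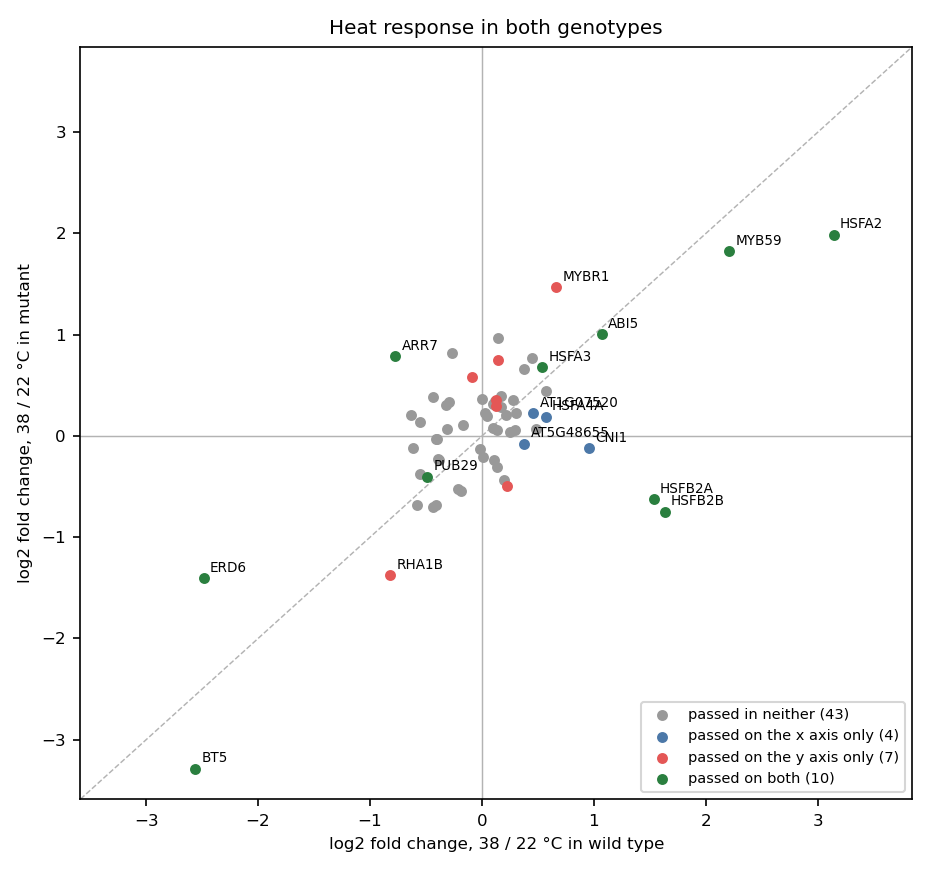
Log2 fold change of 38 °C over 22 °C in the WT (x axis) and in the mutant (y axis) for the 64 tested members with a mean of at least 1 FPKM, one point per member, coloured by where the gene passed at adjusted p below 0.05; the dashed line marks equal responses. HSFA2, MYB59 and ABI5 are high on both axes, BT5 and ERD6 low on both, and HSFB2A, HSFB2B and ARR7 lie in the quadrants of opposite sign.

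The third question was which members' heat responses differed between genotypes. In the mutant 2 had a higher response and 2 a lower one, 4.94% of the 81, where 1.59% of all tested genes passed (0.407% higher and 1.18% lower). The median difference was 0.14, against 0.03 over all tested genes. The 4 were ARR7, AT5G59450, HSFB2B and HSFB2A, and the other 77 tested members did not pass.

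ARR7, a type-A response regulator that restrains cytokinin signalling, was at 24.2, 27.9 and 23.3 FPKM in the WT at 22 °C and at 13.9, 16.9 and 16.3 FPKM at 38 °C. In the mutant it was at 13.7, 18.9 and 19.2 FPKM at 22 °C and at 31.9, 32.8 and 31.4 FPKM at 38 °C. The order of the temperatures was thus opposite in the genotypes, with no overlap within either. It fell in the WT (log2 fold change -0.77 ± 0.13 SE, adjusted p = 0.00127) and rose in the mutant (0.79 ± 0.13 SE, adjusted p = 0.00182), and the difference was 1.56 ± 0.19 (SE; adjusted p = 0.00558), a call lost without the 3 libraries that stood apart. At 38 °C it was higher in the mutant (0.99 ± 0.13 SE, adjusted p = 0.0013), while at 22 °C it was lower without passing (-0.57 ± 0.13 SE, adjusted p = 0.266).

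AT5G59450, a GRAS-family transcription factor gene, was at 6.46, 6.67 and 5.88 FPKM in the WT at 22 °C and at 6.80, 5.95 and 6.29 FPKM at 38 °C, and in the mutant at 7.84, 7.74 and 9.07 FPKM and at 12.5, 13.8 and 13.5 FPKM. The WT temperatures overlapped, whereas the mutant libraries at 38 °C were the highest of the 12. The log2 fold change with heat was -0.09 ± 0.10 (SE; adjusted p = 0.525) in the WT and 0.59 ± 0.10 (adjusted p = 0.00184) in the mutant, and that of the genotypes at 38 °C was 1.02 ± 0.10 (adjusted p = 0.000254). The difference of the responses, 0.68 ± 0.14 (SE; adjusted p = 0.042), was lost in 11 of the 12 fits with 1 library left out (up to 0.119) and kept only without mutant replicate 3 at 22 °C. For HSFB2B the difference of the responses was -2.38 ± 0.18 (SE; adjusted p = 0.000312), and for HSFB2A it was -2.16 ± 0.24 (SE; adjusted p = 0.0043).

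For the 5 members that were higher in the mutant at both temperatures, the heat responses did not pass a test of difference between genotypes. The difference of responses was 0.37 ± 0.25 for MPK3, -0.02 ± 0.26 for MYB77, -0.24 ± 0.25 for MYB73, -0.34 ± 0.24 for AT3G46600 and -0.22 ± 0.15 for NAC062 (SE; adjusted p between 0.494 and 0.988). Heat moved none of the 5 past the threshold in either genotype.

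Of the 81 tested members, 47 passed in none of the 5 comparisons. The same share over all tested genes was not counted, and 30.7% of them passed for heat in the WT alone. The number is therefore not read as a trait of the members. These 47 members included abundant genes with little spread, such as BRH1, a RING-H2 gene that responds to brassinosteroids, with group means of 38.3, 42.1, 37.0 and 45.6 FPKM (WT at 22 and 38 °C, then mutant at 22 and 38 °C). SCL14, a GRAS factor of detoxification responses, had group means of 14.4, 15.6, 16.1 and 15.0 FPKM. SUVH5, a histone H3 lysine methyltransferase, had means of 6.16, 7.196, 5.99 and 6.72 FPKM. They also included genes whose libraries varied within a group. AT4G26400 was at 57.0, 60.4 and 104 FPKM in the WT at 22 °C, and RING1, a RING gene that promotes programmed cell death, at 13.8, 7.83 and 6.05 FPKM in the same libraries. The SD within this group was 26.2 FPKM for AT4G26400 and 4.05 FPKM for RING1.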

How the data were processed

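RNA levels were read from 1 deposited table with 2 values per library. The deposited FPKM values were scaled by the authors to transcript length and library depth. The deposited expected counts are whole-number estimated counts per gene with no depth scaling by the authors, made in a way that no source used here gives. Multiples of 4 made up 47.2% of values up to 20 in genes with a single transcript, so these may not be independent reads, and no counting interval was drawn. Per the submitters' processing notes the tools were StringTie 1.3.4d, HISAT2 2.0.4 and cutadapt 1.9, on the TAIR10 build; their roles were left unstated. No source gives the strand setting used in counting, so overlapping or antisense genes may add reads to a member, and close paralogs (HSFB2A and HSFB2B, CMPG1 and CMPG2) may share reads.

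Counts were tested with edgeR 4.0.16 (R 4.3.3): filterByExpr with a minimum count of 10 kept 23585 genes and removed 4130, libraries were scaled by TMM, and quasi-likelihood tests with 1 mean per group over all 12 libraries were two-sided. A gene passed at a Benjamini-Hochberg adjusted p below 0.05 over all genes tested. The biological coefficient of variation was 25.1%. SE was the log2 fold change divided by the square root of F. Alternatives were DESeq2 1.42.0, limma 3.58.1 on log2(FPKM + 1) and log2(FPKM + 0.1), other scalings, filters and thresholds, a replicate block, each library left out, and, added after seeing the data, the counts divided by 4. No library pair looked like 1 library deposited again. Nothing says how far replicates were grown apart, so the p-values cover the spread among these libraries, which may be technical.

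The members and lists were chosen with earlier results of these data known. Members named were the up to 8 largest rises and falls per comparison among those called without overlap of the groups, the members of the perception list and the 5 with the highest mean level; other members in the text, and the genes removed by the rule's words, were chosen after their values were seen. Roles were assigned by hand after reading the Descriptions, in place of the keyword grouping first planned. RefSeq genes on TAIR10.1 overlapped the deposited positions of all 87 members on the same strand. Promoter windows used RefSeq's gene starts.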

Additional observations from a re-analysis of the deposited data

Results flagged for a closer look

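The heat responses of 4 members differed between the genotypes by the test of the difference itself (mutant minus WT, log2). The values were -2.38 for HSFB2B, -2.16 for HSFB2A, 0.68 for AT5G59450 and 1.56 for ARR7. HSFB2B, HSFB2A and ARR7 changed in opposite directions with heat, each past the threshold in both genotypes. AT5G59450 passed in the mutant alone. Without the 3 libraries that stood apart, the differences for AT5G59450 and ARR7 missed the threshold. That of AT5G59450 also missed it with scaling on reference genes, without a filter on low counts and in both limma fits.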

How the results depend on the processing

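No gene's call reversed in any alternative. Scaling on reference genes gave 29 called members for heat in the WT, and a change of at least 2-fold gave 9. For heat in the mutant the fit with only the groups compared gave 10 called members, adjusted p below 0.01 gave 8, and at least 2-fold gave 7. For genotype at 22 °C, DESeq2 gave 13 of 87 members (11 higher and 2 lower). Over all genes it gave 149 higher and 90 lower against 38 and 7 in the edgeR fit. In this comparison only the groups compared gave 3 and adjusted p below 0.01 gave 2. The fit without the 3 libraries that stood apart gave 8 (7 higher and 1 lower). For genotype at 38 °C, adjusted p below 0.01 gave 10 and at least 2-fold 13. For the difference of heat responses, DESeq2 gave 9 (over all genes 649 higher and 1211 lower against 96 and 278) and the fit without the 3 libraries that stood apart 2; scaling on reference genes gave 1 higher and 4 lower. That scaling shifted the median of all genes by -0.10 for genotype at 38 °C and -0.11 for the difference.

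With each library left out in turn, called members ranged from 12 to 17 for heat in the WT, 12 to 19 for heat in the mutant, 0 to 5 for genotype at 22 °C, 11 to 22 for genotype at 38 °C and 3 to 5 for the difference. The lowest value at 22 °C came without WT replicate 2, and the lowest at 38 °C without WT replicate 1. Calls kept without any 1 library numbered 11 of 16, 10 of 17, 0 of 5, 11 of 21 and 3 of 4 in the same order.

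Same-numbered libraries did not deviate together: 2 of 18 same-number pairs correlated above 0.1 (range -0.28 to 0.27), and 4 of 12 libraries correlated best with their own number. With the replicate block, 14, 16, 4, 16 and 3 members were called. Calls not made with it were HSFA4A and MYB15 for heat in the WT, ERD6 for heat in the mutant, AT3G46600 at 22 °C, AT5G09800, ATL2, CMPG2, EDA39 and RLP52 at 38 °C, and AT5G59450 for the difference. Members under 1 FPKM are limited by depth.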
